A study of Mus musculus with 16 samples.

Results

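The Schwann lineage and myelin genes described here were Fabp7, Gap43, Gpr17, Pou3f1, Egr2, Mbp, Pmp22 and Cnp. They were chosen by gene symbol, to set genes of the precursor against genes of the myelinating state, and all 8 were found among the 23235 rows of the table. The table holds RNA levels of mouse embryonic skin at embryonic day 14.5, sorted by fluorescence into 8 cell fractions with 2 libraries each, 16 libraries in all. The fractions were named Sch, DCSch, Mc, DC, Fb, Pc, Epi and Neg in the labels. General knowledge of the study gives these as Schwann cells, a joint fraction of dermal condensate and Schwann cells, melanocytes, dermal condensate, fibroblasts, placode, epidermis and a negative fraction. Every fraction came from skin of the same age, and neither a strain, a reporter allele nor a sort marker is given in the sources used here. Any gene used to sort the cells would differ by design. RNA was amplified before sequencing, and levels are FPKM, fragments scaled to transcript length and to the fragments of the library, so genes are compared per length.

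Schwann cells arise from the neural crest. Crest cells on growing nerves first become Schwann cell precursors, then immature Schwann cells, and only around and after birth do those that have singled out a large axon wrap it in myelin. In mice, Pou3f1 (Oct6) marks the promyelinating step and Egr2 (Krox20) switches on the genes of the myelin sheath, whose proteins include those of Mbp and Pmp22. Precursors on nerves in the skin are also a known source of melanocytes.

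In the Sch fraction the precursor genes Fabp7 and Gap43 stood above Mbp, Cnp and Pmp22, and Egr2 was close to 0. Fabp7 and Gap43 stood at 1267 ± 249 and 468 ± 52.3 FPKM in Sch (SD, n = 2, as for all means below). In the same libraries Mbp averaged 10.9 ± 3.17 FPKM, Cnp 48.7 ± 4.83 FPKM and Pmp22 136 ± 2.71 FPKM. Egr2 was listed at 0.216 and 0.106 FPKM in Sch, below its level in Fb and DCSch. Pmp22 was highest in Fb. Of the 8 genes, 6 were called higher in Sch than in at least 5 of the other fractions, and Egr2 was called higher in Sch than in none of them. For single partners, 3.56% (DCSch) to 12.5% (Epi) of all tested rows were called higher in Sch. The share of rows higher against at least 5 partners was not counted.

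A gene was called where limma, fitted to log2(FPKM + 1) over all 16 libraries and 14171 tested rows, gave a Benjamini-Hochberg adjusted p under 0.05 and a log2 difference of at least 1 in size. On this scale differences of low genes are understated. All 8 genes passed the filter of 1 FPKM in at least 2 libraries. Nothing in the labels says that the 2 libraries of a fraction came from separate litters or embryos, so p-values measure the spread between these libraries, which may be technical. In sorted bulk fractions, fewer cells of a type and less RNA per cell cannot be told apart.

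The labels were checked against markers. All 25 Schwann precursor markers had a mean of at least 1 FPKM in Sch, but so did all 25 in DCSch, 24 in DC and 20 in Mc. Their sum was 4037 and 4265 FPKM in the Sch libraries against 126 to 1526 FPKM elsewhere. Fabp7 and Gap43 are on that list and made up 39.6% and 44.0% of the Sch sums. The other 23 markers summed to 2440 and 2390.5 FPKM in Sch, against 118 to 1103 FPKM elsewhere, Mc being the highest of those. Melanocyte markers summed to 31.5 and 31.1 FPKM in Sch, and to 9199 and 7223 FPKM in Mc. Dermal condensate markers summed to 69.7 and 76.8 FPKM in Sch, 910 and 941 FPKM in DCSch, and 3785 and 2063 FPKM in DC. Keratinocyte markers differed between the Sch libraries, at 341 and 55.4 FPKM, while Epi held 6714 and 5584 FPKM. Fibroblast markers were also present in Sch. Col3a1 averaged 276 ± 18.5 FPKM in Sch against 2620 ± 150 FPKM in Fb, and Col1a2 141 ± 31.7 FPKM against 1695 ± 378 FPKM. The part of fibroblast RNA in the Sch levels was not tested. Total FPKM ran from 439201 to 606437 over the 16 libraries, and their depth is unknown.

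**Figure D1:**
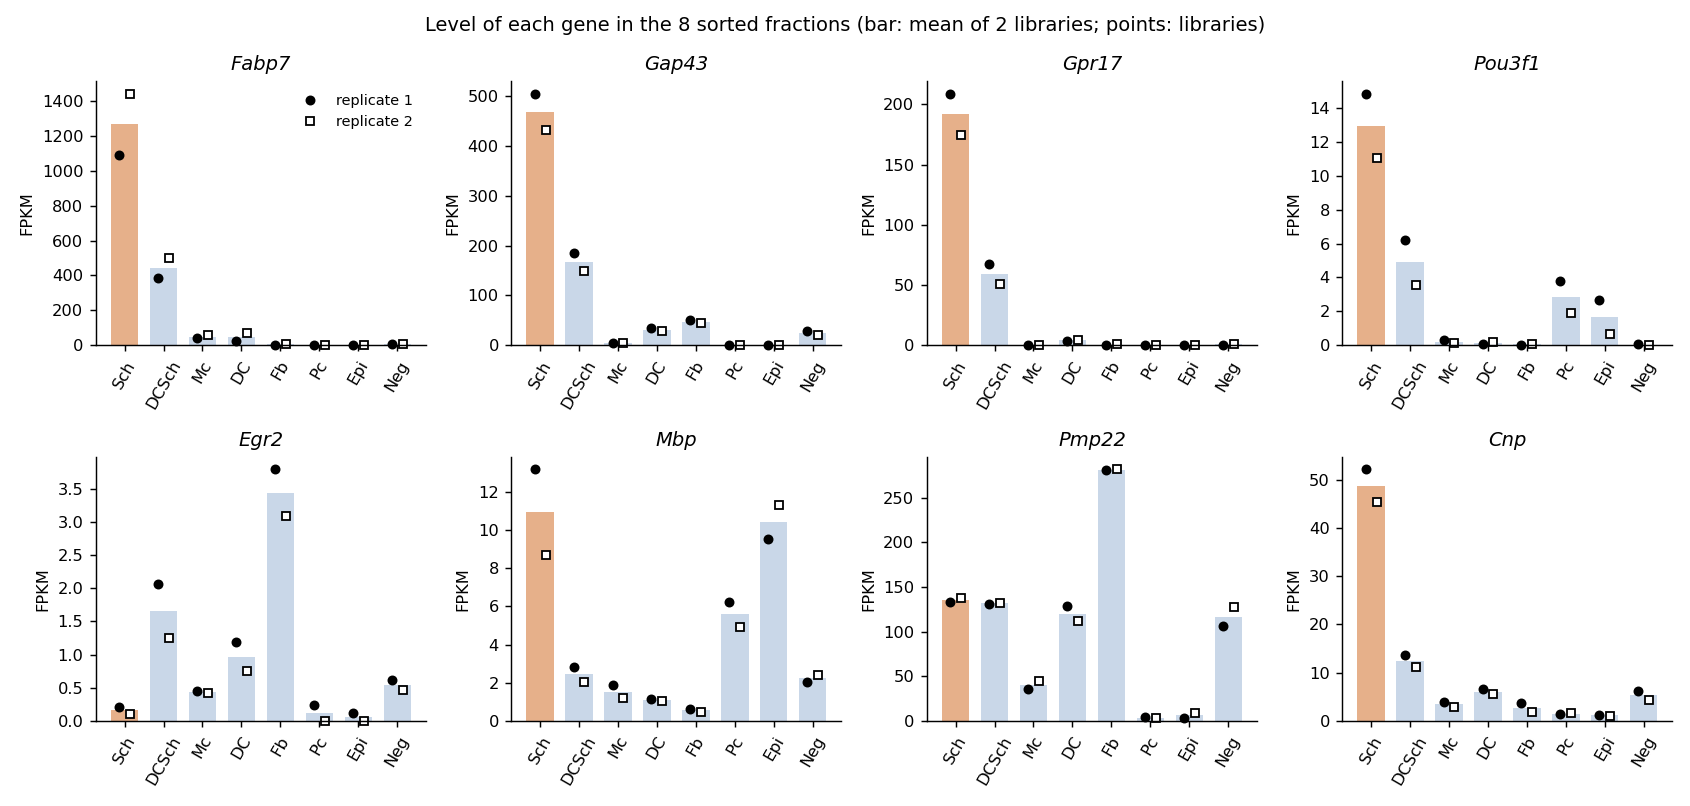
FPKM of the 8 genes, each in its own panel with its own linear axis from 0, in the 8 fractions with Sch at the left; bars are means of 2 libraries and points the libraries. Fabp7, Gap43, Gpr17, Pou3f1 and Cnp have both Sch points above those of every other fraction. Pmp22 and Egr2 have their highest points in Fb, and Mbp has Sch and Epi points side by side.

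Fabp7 encodes brain lipid-binding protein, a small carrier of fatty acids found in radial glia and in Schwann cell precursors. The gene lies on chromosome 10 from 57784923 to 57788450 (mm10, 1-based, as all positions here). The 250 bases before its start site, chr10:57784673-57784922 on the plus strand (RefSeq, GRCm38.p6), are shown because Fabp7 had the highest level of the 8 genes in Sch.

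Fabp7: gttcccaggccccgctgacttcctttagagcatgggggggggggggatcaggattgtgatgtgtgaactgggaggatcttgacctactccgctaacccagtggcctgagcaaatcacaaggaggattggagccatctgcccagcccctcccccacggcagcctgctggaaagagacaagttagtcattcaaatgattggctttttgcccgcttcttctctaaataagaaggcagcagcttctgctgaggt

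The levels of Fabp7 were 1091 and 1443 FPKM in Sch, 384 and 502 FPKM in DCSch, 42.2 and 56.0 FPKM in Mc, and 24.02 and 70.1 FPKM in DC. Lower levels were seen in Fb (4.004 and 9.57 FPKM), Neg (6.02 and 4.82 FPKM), Pc (1.49 and 1.49 FPKM) and Epi (0.402 and 3.48 FPKM). In the Sch libraries Fabp7 ranked 52 and 29 among all rows and took 0.249% and 0.325% of the FPKM. Both Sch libraries lay above every other library, and the step down to DCSch and the next one to Mc had no overlap.

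Against Mc the log2 difference of Fabp7 was 4.66 (SE 0.56, adjusted p = 9.3e-05), against Fb 7.43 (SE 0.56, adjusted p = 1.87e-06) and against DC 4.90 (SE 0.56, adjusted p = 3.9e-05). The difference between Sch and DCSch, 1.51 (SE 0.56), was not called (adjusted p = 0.124). It was called with the replicate number as a block (adjusted p = 0.0264), and over all alternatives its adjusted p ran between 0.0243 and 0.42. Mc and DC were not told apart (log2 difference 0.23, SE 0.56, adjusted p = 0.811), nor were Fb and Neg or Epi and Pc.

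Gap43 encodes a growth cone membrane protein best known from neurons, and it is also made by Schwann cell precursors and by Schwann cells that do not form myelin. It spans positions 42248561 to 42340651 of chromosome 16. Its levels were 505 and 431 FPKM in Sch, 185 and 149 FPKM in DCSch, 33.7 and 29.3 FPKM in DC, and 50.02 and 44.1 FPKM in Fb. Neg had 28.8 and 21.3 FPKM, while Mc (4.08 and 3.71 FPKM), Pc (1.37 and 0.688 FPKM) and Epi (1.33 and 1.44 FPKM) were low. Sch stood apart from DCSch, and DCSch from the mesenchymal fractions, without overlap.

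The log2 difference of Gap43 was 1.49 between Sch and DCSch (SE 0.22, adjusted p = 0.000904), 3.29 between Sch and Fb (SE 0.22, adjusted p = 9.4e-07) and 6.58 between Sch and Mc (SE 0.22, adjusted p = 1.08e-08). Gap43 and Fabp7 ran opposite ways between Mc and Fb: Gap43 was lower in Mc (log2 difference -3.29, SE 0.22, adjusted p = 8.1e-07), while Fabp7 was higher (2.77, SE 0.56, adjusted p = 0.00296). Between Mc and Fb 1 of the 8 genes was called higher in Mc and 3 were lower, with Egr2 and Pmp22 the other 2, where 7.59% of the tested rows were higher and 11.8% lower. In its order Fb was not told apart from DC, nor DC from Neg (adjusted p = 0.0996 and 0.3). Because axons hold GAP43 too, neuron markers were read beside it. The 18 markers summed to 67.9 and 77.4 FPKM in Sch, 37.7 and 35.1 FPKM in DCSch and 2.50 to 61.6 FPKM in the other fractions. Of the 18, 7 reached a mean of 1 FPKM in Sch, led by the tubulin Tubb3 at 18.8 ± 2.04 FPKM. Of these 7, Uchl1 (15.1 ± 3.40 FPKM), Map2 (13.5 ± 5.59 FPKM), Syt1 (10.4 ± 2.32 FPKM) and Elavl4 (8.21 ± 3.27 FPKM) had their highest means in Sch. Tubb3 was higher in Mc (44.9 ± 10.5 FPKM), Isl1 in Neg (18.9 ± 2.15 FPKM) and Stmn2 in DC (16.4 ± 4.32 FPKM). Rbfox3 and Scg2 were among the markers listed at 0 in both Sch libraries. The part of neuronal RNA in the Gap43 level was not tested.

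Gpr17 encodes a G protein-coupled receptor, related to those for nucleotides and cysteinyl leukotrienes, that is known in the central nervous system for marking oligodendrocyte precursors on their way to myelination. The row covers 31931507 to 31958619 of chromosome 18, whereas the RefSeq gene spans 31942999 to 31949890. The wider locus takes in the neighbouring gene Lims2, which has its own row. Levels of Gpr17 were 209 and 175 FPKM in Sch, 67.6 and 50.5 FPKM in DCSch and 3.38 and 4.57 FPKM in DC. In the other 5 fractions it stayed between 0.0698 FPKM (Neg replicate 1) and 1.20 FPKM (Neg replicate 2). Mc, at 0.471 and 0.398 FPKM, was among them. Lims2 had 40.5 and 30.7 FPKM in Sch and 12.1 and 7.28 FPKM in DCSch, so the same fractions led in both rows. How fragments were shared between the rows was not tested.

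Gpr17 had a log2 difference of 1.69 between Sch and DCSch (SE 0.31, adjusted p = 0.0038), 7.07 between Sch and Mc (SE 0.31, adjusted p = 6.36e-08) and 7.05 between Sch and Fb (SE 0.31, adjusted p = 9.24e-08). With a pseudocount of 0.1 the call against DCSch was lost (adjusted p = 0.208; range over the alternatives 0.00108 to 0.208). DC was told apart from Neg, the next in its order (1.69, SE 0.31, adjusted p = 0.00128), and no later step among the last 5 fractions was called.

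Receptors related to GPR17 were also read as a group of 9 other genes, of which 4 passed the filter. Against each of Mc, DC and Fb, 3 of the 4 were called higher in Sch and none lower, where 7.31%, 10.3% and 6.72% of all tested rows were higher. P2ry12, a receptor for ADP, had 9.59 and 12.7 FPKM in Sch against 0.564 and 0.749 FPKM in Mc. P2ry1, another ADP receptor, averaged 21.4 ± 7.49 FPKM in Sch against 1.69 ± 0.743 FPKM in Mc. The leukotriene receptor Cysltr1 was listed at 0 in both Sch libraries.

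Of 20 genes of the oligodendrocyte lineage in the table, Gpr17 left out, 10 passed the filter. Of these, 5 were called higher and none lower in Sch than in Mc (7.31% and 4.53% of all tested rows). Likewise 5 were higher and none lower against Pc (11.9% and 8.48%) and against Epi (12.5% and 10.8%). The remaining partners gave calls both ways: 4 higher and 3 lower against Fb (6.72% and 8.68%), and 4 and 1 against Neg (7.16% and 9.43%). Against DC 3 were higher and 2 lower (10.3% and 8.97%), as against DCSch (3.56% and 5.29%). Aspa, which encodes an enzyme that splits N-acetylaspartate, averaged 39.0 ± 16.2 FPKM in Sch and 0.206 ± 0.206 FPKM in Mc. The transcription factor gene Sox8 averaged 16.9 ± 0.00714 FPKM in Sch and 0.172 ± 0.0125 FPKM in Mc, but its mean was higher in Neg (24.5 ± 6.62 FPKM). Of the 20 genes, 7 were listed at 0 in both Sch libraries, Olig2 and Mobp, named after their values were seen, among them.

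Pou3f1, the POU factor of the promyelinating step, lies at 124657646 to 124660655 of chromosome 4. It had 14.8 and 11.04 FPKM in Sch, 6.23 and 3.58 FPKM in DCSch, 3.78 and 1.90 FPKM in Pc and 2.68 and 0.661 FPKM in Epi. Mc (0.284 and 0.153 FPKM) and DC (0.0841 and 0.210 FPKM) were low. It was listed at 0 and at 0.0893 FPKM in Fb, and at 0.0543 FPKM and at 0 in Neg. Its second highest levels were thus in the joint fraction and the epithelium, where OCT6 is also known from keratinocytes, and the DCSch and Pc libraries overlapped.

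Sch exceeded Pc by 1.89 (SE 0.36, adjusted p = 0.0018), Epi by 2.48 (SE 0.36, adjusted p = 0.000209) and Mc by 3.51 (SE 0.36, adjusted p = 2.7e-05) on the log2 scale for Pou3f1. Its difference from DCSch, 1.26 (SE 0.36, adjusted p = 0.0429), was lost without either Sch library (adjusted p = 0.236 without replicate 1 and 0.0856 without replicate 2) and without DCSch replicate 2 (0.299). It was also lost with no filter (0.0622), with pseudocounts of 0.1 (0.241) and 0.5 (0.0828) and with the 4 compared libraries alone (0.0889). The call thus held in 6 of 13 alternatives, with adjusted p between 0.00745 and 0.299. The 3 other class 3 POU genes did not share the level: Pou3f2, for example, had 0.171 and 0.649 FPKM in Sch.

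Egr2, whose zinc finger protein drives the myelin genes, lies at 67537869 to 67542188 of chromosome 10. The 250 bases before its start site, chr10:67537619-67537868 on the plus strand (RefSeq, GRCm38.p6), are shown with an octamer in capitals, the letters ATGCAAAT that POU factors such as Pou3f1 can bind.

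Egr2: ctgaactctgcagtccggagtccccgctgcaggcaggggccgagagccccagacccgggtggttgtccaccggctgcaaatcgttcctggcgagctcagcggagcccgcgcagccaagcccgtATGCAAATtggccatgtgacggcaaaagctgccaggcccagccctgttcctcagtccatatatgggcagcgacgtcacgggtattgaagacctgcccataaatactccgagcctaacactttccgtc

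Egr2 had 0.216 and 0.106 FPKM in Sch, 2.06 and 1.26 FPKM in DCSch, 1.19 and 0.746 FPKM in DC and 3.79 and 3.09 FPKM in Fb. Neg had 0.615 and 0.459 FPKM and Mc 0.457 and 0.423 FPKM. In the epithelium it was listed at 0.235 FPKM and at 0 in Pc, and at 0.120 FPKM and at 0 in Epi. Among all rows of the Sch libraries it ranked 13902 and 14242, far below the other 7 genes, and both Sch libraries lay under all libraries of DCSch, DC, Fb, Neg and Mc.

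Egr2 was lower in Sch than in Fb by a log2 difference of -1.93 (SE 0.20, adjusted p = 1.86e-05) and lower than in DCSch by -1.18 (SE 0.20, adjusted p = 0.00195). The second call was lost without DCSch replicate 1, where the difference was -0.96 and so under the threshold. Against DC the difference of -0.75 (SE 0.20, adjusted p = 0.0136) was also under it. No fraction was called different from the next in the order of Egr2. Egr1, an immediate early gene of the same family, was also lower in Sch than in Fb, at 23.7 and 19.6 FPKM in Sch against 117 and 61.7 FPKM in Fb (log2 difference -1.93, SE 0.49, adjusted p = 0.0139). Egr3 ran the other way, with means of 3.32 ± 1.44 FPKM in Sch, 1.21 ± 1.12 FPKM in Fb and 0.0391 ± 0.0553 FPKM in Mc, and was not called against Fb. Of the NAB proteins that bind EGR factors, Nab1 averaged 4.86 ± 0.401 FPKM in Sch and 13.1 ± 4.09 FPKM in Fb, which was called lower (log2 difference -1.24, SE 0.38, adjusted p = 0.0391). Nab2 was not called (22.8 ± 7.88 FPKM in Sch, 12.4 ± 6.73 FPKM in Fb).

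Mbp encodes myelin basic protein, which holds the inner faces of the myelin membrane together, and its row runs over 82475123 to 82585637 of chromosome 18. The gene is known to make further transcripts, the Golli forms, outside myelin, and the row does not separate them. Its levels were 13.2 and 8.70 FPKM in Sch, 2.80 and 2.06 FPKM in DCSch, 6.22 and 4.94 FPKM in Pc and 9.52 and 11.3 FPKM in Epi. They were 2.04 and 2.43 FPKM in Neg, 1.86 and 1.21 FPKM in Mc, 1.14 and 1.06 FPKM in DC and 0.623 and 0.488 FPKM in Fb. The Sch and Epi libraries overlapped, with Sch replicate 1 above and replicate 2 below both Epi libraries.

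Mbp did not pass the test between Sch and Epi (log2 difference 0.04, SE 0.24, adjusted p = 0.93), and the sign turned without Sch replicate 1 (-0.23), without Epi replicate 1 (-0.07) and with quantile normalization (-0.02). Against Pc the difference of 0.84 (SE 0.24, adjusted p = 0.0226) was under the threshold of 1. It was called with every library rescaled to the same total (1.09, where the median of all tested rows was 0.22) and without Sch replicate 2 (1.12). Sch was higher than Mc by 2.22 (SE 0.24, adjusted p = 4.41e-05), than DCSch by 1.78 (SE 0.24, adjusted p = 0.000549) and than Fb by 2.92 (SE 0.24, adjusted p = 4e-06). Sch replicate 1, with more Mbp, was also the Sch library with the larger keratinocyte marker sum, 341 against 55.4 FPKM, and the part of keratinocyte RNA in the Mbp level was not tested.

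Cnp encodes CNPase, a membrane enzyme of myelin-forming glia that keeps cytoplasmic channels in myelin open, and lies at 100574939 to 100581739 of chromosome 11. The 250 bases before its start site, chr11:100574689-100574938 on the plus strand (RefSeq, GRCm38.p6), hold the letters ACAAAG, in capitals, a core that SOX factors such as Sox10 can bind.

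Cnp: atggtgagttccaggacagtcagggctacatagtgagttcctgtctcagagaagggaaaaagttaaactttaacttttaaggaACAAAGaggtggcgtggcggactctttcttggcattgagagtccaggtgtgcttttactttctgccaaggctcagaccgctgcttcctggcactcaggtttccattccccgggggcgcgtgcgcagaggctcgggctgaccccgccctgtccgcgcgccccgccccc

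Cnp had 52.1 and 45.3 FPKM in Sch, 13.8 and 11.1 FPKM in DCSch, 3.91 and 2.95 FPKM in Mc and 6.59 and 5.53 FPKM in DC. It had 6.23 and 4.39 FPKM in Neg, 3.69 and 1.83 FPKM in Fb, 1.40 and 1.54 FPKM in Pc and 1.18 and 1.11 FPKM in Epi. Both Sch libraries stood above all others, and the fractions after DCSch followed each other closely. For Cnp the log2 difference was 1.89 between Sch and DCSch (SE 0.27, adjusted p = 0.00066), 3.49 between Sch and Mc (SE 0.27, adjusted p = 2.43e-06) and 3.77 between Sch and Fb (SE 0.27, adjusted p = 1.22e-06). No neighbours in its order after Sch were told apart.

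Pmp22 encodes a small membrane protein of peripheral myelin that is also made outside nerves, and was first known from growth-arrested fibroblasts. It lies at 63131510 to 63159546 of chromosome 11. Its levels were 134 and 138 FPKM in Sch, 131 and 132 FPKM in DCSch, 129 and 112 FPKM in DC, 107 and 127 FPKM in Neg and 281 and 282 FPKM in Fb. Mc had 35.6 and 44.8 FPKM, Pc 4.03 and 2.74 FPKM and Epi 3.40 and 9.15 FPKM. Both Fb libraries lay above all others, and the 8 libraries of Sch, DCSch, DC and Neg lay between 107 and 138 FPKM.

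Pmp22 was lower in Sch than in Fb by a log2 difference of -1.05 (SE 0.31, adjusted p = 0.0346), a call that ended without any one of the 4 libraries (adjusted p from 0.111 to 0.136). It was also lost with libraries rescaled to the same total (-0.91) and with quantile normalization (-0.88), where the difference fell short of 1. Its adjusted p over all alternatives lay between 0.0141 and 0.136. Sch was not told apart from DCSch (0.04, SE 0.31, adjusted p = 0.995), DC (0.17, SE 0.31, adjusted p = 0.793) or Neg (0.22, SE 0.31, adjusted p = 0.724). It was higher than Mc by 1.74 (SE 0.31, adjusted p = 0.0021) and than Pc by 4.98 (SE 0.31, adjusted p = 3.61e-07). Pmp22 has 4 promoter entries, and the 250 bases of the 1 searched, that nearest the start of the row, hold none of the motifs searched.

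The 4 motifs were ACAAAG and ACAATG of the SOX type, the octamer ATGCAAAT and GCGTGGGCG of the EGR type, searched on both strands of the 250 bases before the start. Fabp7, Egr2, Pmp22 and Cnp had entries, 4 of the 8 genes. Egr2 had 5 entries, and only the 1 that begins at the start of the row was searched. Over all 32851 promoter entries, ACAAAG was found in 16.5%, ACAATG in 10.7%, ATGCAAAT in 1.6% and GCGTGGGCG in 0.536%. The match in Cnp began 167 bases and that in Egr2 127 bases before the start site. A match describes letters and not a bound site.

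**Figure D2:**
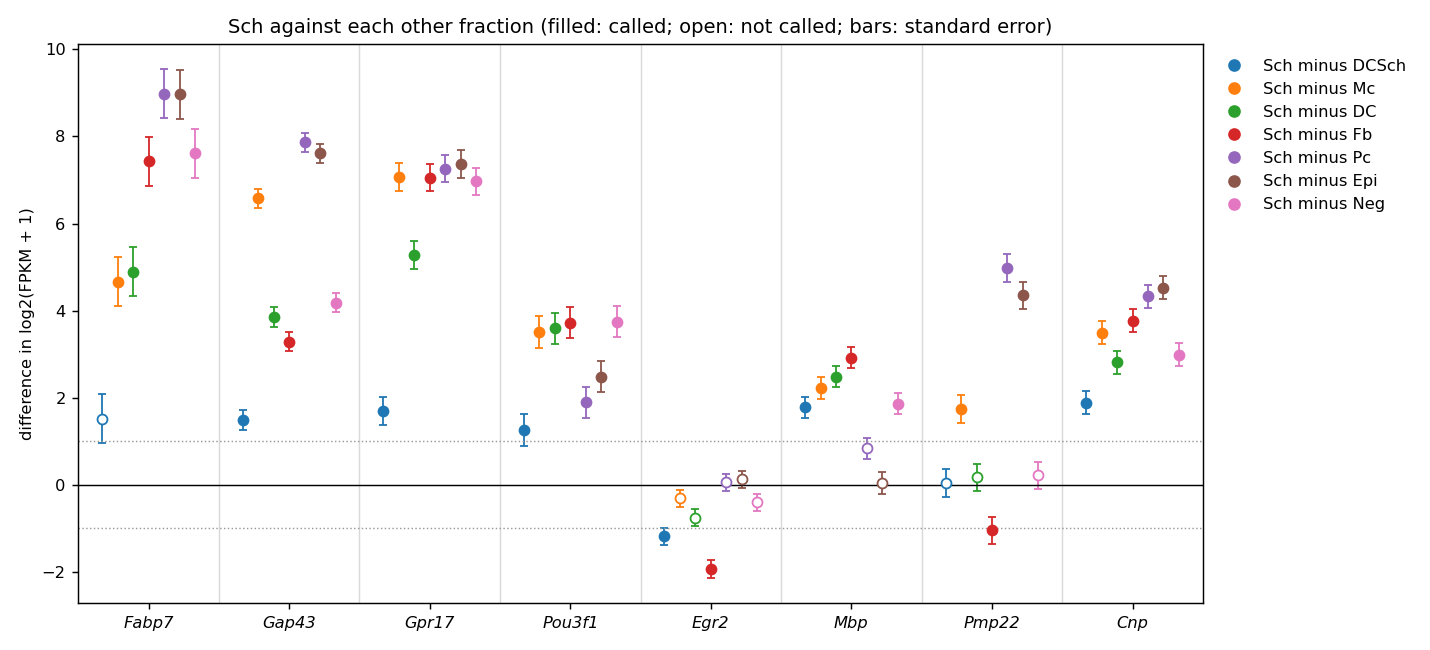
Log2 difference of Sch from each of the other 7 fractions for the 8 genes, on the log2(FPKM + 1) scale; points are limma estimates, bars 1 SE, filled points are called, and dotted lines mark differences of 1 and -1. Fabp7, Gap43, Gpr17, Pou3f1 and Cnp lie above 0 throughout, Egr2 lies below it against Fb (-1.93) and DCSch (-1.18), and Pmp22 lies near 0 against DCSch, DC and Neg.

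The counts differed by partner. Against DCSch, 5 of the 8 genes were called higher in Sch and 1 lower, where 3.56% of the tested rows were higher and 5.29% lower. Against Mc 7 were higher and none lower (7.31% and 4.53% of all rows), with Egr2 alone not called. Against Fb 6 were higher and 2 lower, Egr2 and Pmp22 (6.72% and 8.68%). Against DC 6 were higher and none lower (10.3% and 8.97%), with Egr2 and Pmp22 not called. Likewise 6 were higher and none lower against Pc (11.9% and 8.48%), Epi (12.5% and 10.8%) and Neg (7.16% and 9.43%). The 2 not called were Egr2 and Mbp against Pc and against Epi, and Egr2 and Pmp22 against Neg. These 7 comparisons share the Sch libraries.

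To set the precursor against the myelinating state within each library, the FPKM of Fabp7 and Gap43 was divided by that of Mbp, Pmp22 and Cnp. The ratio was 8.02 and 9.79 in Sch, 3.85 and 4.49 in DCSch, 1.12 and 1.22 in Mc, and 0.423 and 0.840 in DC. It was 0.190 and 0.189 in Fb, 0.246 and 0.236 in Pc, 0.123 and 0.228 in Epi and 0.303 and 0.195 in Neg. The ratio was above 1 in Sch, DCSch and Mc and below 1 elsewhere. Pmp22 was 67.2% and 71.8% of the myelin sum in Sch and 86.0% to 99.2% in DCSch, Mc, DC, Fb and Neg, but 24.1% to 42.4% in Pc and Epi. Without Pmp22 the ratio was 24.4 and 34.7 in Sch, 34.4 and 49.3 in DCSch, 8.01 and 14.4 in Mc, 7.46 and 15.1 in DC, 12.5 and 23.2 in Fb and 4.21 and 3.83 in Neg. It stayed below 1 in Pc (0.376 and 0.336) and Epi (0.162 and 0.396), and the side of 1 turned in DC, Fb and Neg. Fabp7 alone stood at 82.8 and 166 times the level of Mbp in the Sch libraries, and at 137 and 243 times in DCSch. This ratio was 22.7 and 46.4 in Mc, 21.1 and 66.1 in DC and 6.43 and 19.6 in Fb. In Neg it was 2.95 and 1.98, and in Pc and Epi it was below 1. This description has no test.

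A wider list of 26 peripheral myelin structure genes, Mbp, Pmp22 and Cnp included, had 17 tested rows. Of these, 11 were called higher and 1 lower in Sch than in Mc (median log2 difference 1.81, against 0.0103 over all rows), 9 and 1 against DC, and 9 and 2 against Fb. Of all tested rows, 7.31% were higher and 4.53% lower against Mc, 10.3% and 8.97% against DC, and 6.72% and 8.68% against Fb. Mal, for a lipid raft protein, had 69.0 and 67.4 FPKM in Sch against 0.206 and 0.151 FPKM in Mc.

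Levels of the sheath genes in Sch were mixed. Of the 25 myelin list genes in the table, 15 reached a mean of 1 FPKM there. A mean of 10 FPKM was reached by 11, Mbp, Pmp22 and Cnp included. Gjc3 and Gldn averaged 62.2 ± 13.6 and 51.0 ± 9.94 FPKM in Sch. Others were low. Pmp2, which encodes a myelin fatty acid binding protein related to FABP7, was listed at 0 in both Sch libraries. Gjb1, for the gap junction protein of myelin, was the gene called lower in Sch than in Mc, with 0.134 FPKM and 0 in Sch against 3.77 and 3.72 FPKM in Mc. Drp2, for a dystrophin-related protein of the sheath, was lower in Sch than in Fb, at 0.864 and 1.23 FPKM in Sch against 4.45 and 4.19 FPKM in Fb. Mag and Prx, named after their values were seen, had 4.89 and 2.11 FPKM and 5.02 and 1.96 FPKM in Sch.

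The 25 Schwann precursor genes, with Fabp7 and Gap43 among them, were all tested. Against Fb 23 were called higher in Sch and none lower (6.72% and 8.68% of all tested rows), and against Mc 18 higher and 3 lower (7.31% and 4.53%). Against DC they were 21 and 2 (10.3% and 8.97%), and against DCSch 18 and 1 (3.56% and 5.29%). Median log2 differences were 4.66, 2.31, 3.99 and 1.54. Gfra3, for the artemin receptor, averaged 203 ± 24.9 FPKM in Sch and 0.769 ± 0.00655 FPKM in Mc. Ednrb, for an endothelin receptor that neural crest cells need, averaged 269 ± 89.0 FPKM in Sch and 1.58 ± 0.916 FPKM in Fb. Against Mc, with 333 ± 14.3 FPKM, it was not called. Sox10, which both lineages keep, had 187.5 and 92.2 FPKM in Sch against 131 and 123 FPKM in Mc and was not called (log2 difference 0.05, SE 0.38, adjusted p = 0.971). The 3 lower in Sch than in Mc were Tfap2a, Pax3 and Ets1.

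Genes of the immature and promyelinating steps were split. Of 21 genes, Pou3f1 among them, 19 were tested, and 8 were called higher and 1 lower in Sch than in Mc (7.31% and 4.53% of all tested rows). Calls were 6 and 4 against Fb (6.72% and 8.68%), and 6 and 4 against DC (10.3% and 8.97%). S100b, a classical Schwann cell marker, had 9.95 and 10.6 FPKM in Sch against 0.158 and 0.134 FPKM in Mc. Among 16 tested regulators of myelin genes, Egr2 and Pou3f1 included, 4 were higher and 3 lower in Sch than in Fb (6.72% and 8.68% of all tested rows). Among 14 regulators that hold back myelin genes, 4 were higher and 3 lower in that comparison. Sox2, one of those that hold myelin genes back and also a known dermal condensate gene, averaged 3.15 ± 0.595 FPKM in Sch and 22.2 ± 4.04 FPKM in DC (log2 difference -2.48, SE 0.19, adjusted p = 1.69e-06).

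**Figure D3:**
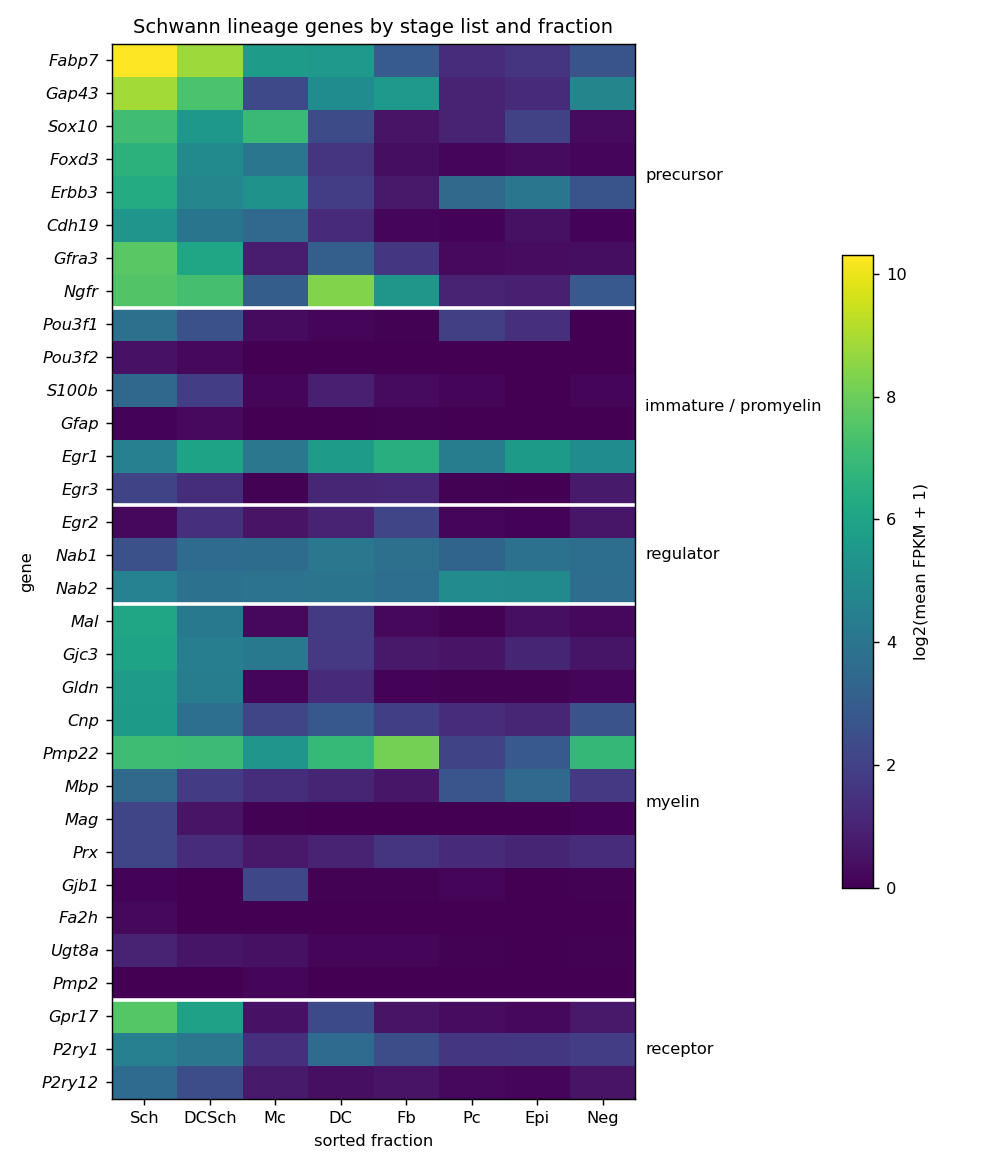
Level of chosen precursor, immature, regulator, myelin and receptor genes (rows) in the 8 fractions (columns, Sch at the left), as the log2 of the mean FPKM plus 1. The precursor rows are bright in Sch and DCSch, while the myelin rows are mixed, with Mal bright in Sch and Pmp2 and Gjb1 dark; Pmp22 is brightest in Fb.

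The joint fraction DCSch lay between DC and Sch for the genes that separate them. Its mean level was placed on a scale from 0 (the DC mean) to 1 (the Sch mean) for the 6 genes called between Sch and DC. Fabp7 stood at 0.324, Gap43 at 0.310, Gpr17 at 0.293 and Pou3f1 at 0.372. Cnp, at 0.150, and Mbp, at 0.136, stood lower. With replicates 1 and 2 taken by themselves the position was 0.138 and 0.131 for Mbp and 0.157 and 0.141 for Cnp, below the 0.270 to 0.416 of the other 4 genes. Over the 919 rows called higher in Sch than in DC with at least 10 FPKM in Sch, the median was 0.342 with quartiles of 0.265 and 0.486. Of these rows, 4.57% lay below Mbp and 5.77% below Cnp, against 46.0% below Fabp7.

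Between DCSch and DC themselves, 4 of the 8 genes were called higher in DCSch and none lower, where 4.41% of the tested rows were higher and 1.79% lower. The 4 were Fabp7 (log2 difference 3.38, SE 0.56, adjusted p = 0.00255), Gap43 (2.36, SE 0.22, adjusted p = 8.81e-05), Gpr17 (3.59, SE 0.31, adjusted p = 5.78e-05) and Pou3f1 (2.33, SE 0.36, adjusted p = 0.0017). Cnp (0.93, SE 0.27, adjusted p = 0.0587) and Mbp (0.70, SE 0.24, adjusted p = 0.131) did not pass. Egr2 has no position on the scale, since Sch and DC were not called different, and its DCSch mean of 1.66 FPKM was above both the Sch mean of 0.161 and the DC mean of 0.969 FPKM. DCSch also held fibroblast markers, with sums of 2796 and 2456 FPKM against 2440 and 1987 FPKM in DC and 9533 and 8463 FPKM in Fb. Their part in the DCSch levels was not tested.

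**Figure D4:**
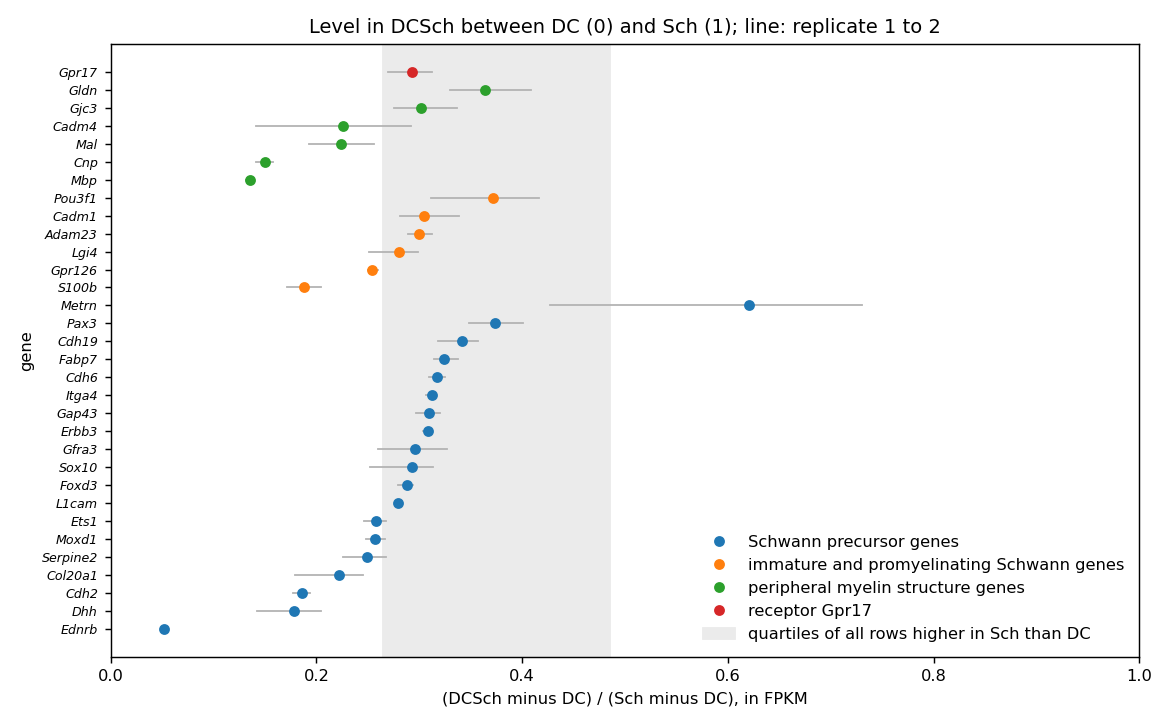
Position of DCSch between the DC mean (0) and the Sch mean (1) for Gpr17 and genes chosen from 3 lists that were called higher in Sch than in DC; points use means, lines join replicates 1 and 2, and the grey band gives the quartiles 0.265 and 0.486 of 919 rows. Mbp (0.136) and Cnp (0.150) lie below the band, and Fabp7 (0.324), Gap43 (0.310), Gpr17 (0.293) and Pou3f1 (0.372) lie in it.

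The 8 genes did not move as 1 group across the 16 libraries. On the log2 scale Pearson's r was 0.92 between Gpr17 and Cnp, 0.91 between Fabp7 and Gpr17, and 0.81 between Fabp7 and Gap43. It was -0.75 between Egr2 and Mbp, and -0.56 between Mbp and Pmp22. These describe 16 libraries of 8 fractions, with the libraries of a fraction sharing their source.

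The rows most like each gene, among 9040 with at least 10 FPKM in some fraction, were named by r over the same libraries. For Gpr17 they were Gldn (0.995), which encodes gliomedin of the Schwann cell microvilli at nodes, Mal (0.992) and the protocadherin gene Pcdh20 (0.987). For Fabp7 they were Fam78b (0.973), Ndst3 (0.969) and Cmtm5 (0.962). For Gap43 they were Gfra1 (0.986), a GDNF receptor gene, Sash1 (0.985) and the tubulin gene Tubb4a (0.977). Cnp had Fam78b (0.954), Egfl8 (0.953) and Afap1l2 (0.951), and Pou3f1 had Cdk18 (0.973), the potassium channel gene Kcna1 (0.960) and Vsnl1 (0.944).

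Egr2 had Thbs1 (0.980), Emilin3 (0.978) and Scube2 (0.977), and Thbs1, which encodes thrombospondin 1 of the matrix, had 2.83 ± 0.468 FPKM in Sch and 74.4 ± 10.6 FPKM in Fb. Pmp22 had Antxr2 (0.976), Lhfpl2 (0.974) and Tro (0.974). Among those of Mbp were the epidermal protease gene Klk8 (0.907) and Atp10b (0.905).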

How the data were processed

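RNA of 8 sorted fractions of mouse skin at embryonic day 14.5 was measured in 16 libraries, 2 per fraction. Per the labels' protocols, RNA had integrity numbers from 8.8 upwards, amplification began with 6 ng of it, and each library took 100 ng of cDNA. The authors deposited 1 table of FPKM values. Per the submitters' processing notes, TopHat2 2.0.3, Bowtie2 and Cufflinks 2.1.1 were used with mm10. Whether libraries were scaled to each other is not stated. The table holds no counts, so the depth is unknown and no counting error is given. Steps among values below 0.3 FPKM gave a rough depth of replicate 1 over replicate 2 of 0.637 to 1.42.

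Values were taken to log2(FPKM + 1), and limma 3.58.1 (R 4.3.3) was run on the 14171 rows that reached 1 FPKM in 2 or more libraries. The fit had 1 mean per fraction over all 16 libraries and a trended, robust spread. Benjamini-Hochberg adjustment was over all tested rows within each of 28 comparisons. The fit was tested on simulated data. The 8 genes and 23 gene lists (284 entries, 280 in the table) were chosen with earlier results of these data known. From each list, up to 6 genes by their level in Sch and up to 4 called in each direction against Mc, DC or Fb may be named, and for each of the 8 genes the 3 rows of highest correlation. Other list genes are named where a count is 5 or fewer.

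Same-numbered libraries deviated together from their fraction means in all 28 pairs of fractions (correlations across genes 0.148 to 0.656, median 0.491), so the numbers were read as pairing the samples. The fit without the replicate number is the main one. Alternatives were other pseudocounts (0.1 and 0.5), no filter or one of 5 FPKM, libraries rescaled to the same total, quantile normalization, the 4 compared libraries alone, a plain spread, a replicate block and leaving out each library. Promoters came from RefSeq for GRCm38.p6, cut to the 250 bases before the start. A few genes of the lists and of the rows most like a gene are counted but not reported here by name.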

Additional observations from a re-analysis of the deposited data

How the results depend on the processing

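Of 716 values of single genes under the alternatives, 688 kept their direction and their side of the threshold, 17 lost a call, 6 gained one and 5 changed sign. The sign changed for genes not called: Egr2 between Sch and Pc without Sch replicate 1 (-0.00676) and without Pc replicate 2 (-0.0902; up to 0.214 without the other libraries), and Mbp between Sch and Epi with quantile normalization (-0.0185), without Sch replicate 1 (-0.232) and without Epi replicate 1 (-0.0721; up to 0.317 without the other libraries). Against DCSch, 3 genes rather than 5 were called higher in Sch with a pseudocount of 0.1, and 0 rather than 1 were lower with a filter of 5 FPKM, which Egr2 does not pass, and with the 4 compared libraries alone. With a library left out these counts ranged from 4 to 5 and from 0 to 1. Against DC, 1 gene rather than 0 was lower in Sch with pseudocounts of 0.1 and 0.5, namely Egr2. Against Fb, 1 gene rather than 2 was lower with a filter of 5 FPKM, a pseudocount of 0.1, libraries rescaled to the same total, quantile normalization, and each of the 4 libraries left out (1 to 1). The other causes were not tested. With the replicate block, 6 genes rather than 5 were higher in Sch than in DCSch, the addition being Fabp7, and no other call on the 8 genes between Sch and another fraction changed. Rescaling to the same total put the median log2 difference of all tested rows at 0.105 (against DCSch and DC) to 0.329 (against Epi), where the 7 medians lay between 0 and 0.0279 as deposited. The ratio of precursor to myelin genes in Sch was 8.02 and 9.79 with either library alone. With a pseudocount of 0.1, 1 of the 3 rows most like Gpr17, Egr2, Mbp and Cnp stayed among the first 3. With 2 libraries a fraction and unknown depth, low values such as those of Egr2 in Sch have no stated counting error.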

Other observations

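Other genes of fatty acid and retinoid binding proteins were read beside Fabp7. Of these 13, 7 were tested, and 7 were listed at 0 in both Sch libraries. Fabp5, the epidermal form, had 85.6 and 87.0 FPKM in Sch against 893 and 1045 FPKM in Epi, and was lower in Sch than in Mc (log2 difference -1.81, SE 0.19, adjusted p = 3.18e-05). Crabp1, for a retinoic acid carrier, was lower in Sch than in DC, at 309 and 171 FPKM in Sch against 3974 and 2290.2 FPKM in DC (log2 difference -3.71, SE 0.42, adjusted p = 3.72e-05).

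Genes of the same membrane and growth cone group were read beside Gap43. Of 17 others, 15 were tested, and 2 were called higher and 3 lower in Sch than in Fb (6.72% and 8.68% of all tested rows), and none higher and 3 lower than in DCSch (3.56% and 5.29%). The 2 higher than in Fb were Crmp1 (11.4 ± 0.569 FPKM in Sch, 2.82 ± 0.331 FPKM in Fb) and Dpysl3 (111 ± 16.8 FPKM in Sch, 45.4 ± 10.4 FPKM in Fb), named after their values were seen. Basp1, which encodes another membrane protein of growth cones, averaged 13.8 ± 1.65 FPKM in Sch and 82.4 ± 4.74 FPKM in Fb (log2 difference -2.50, SE 0.26, adjusted p = 2.2e-05).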
